A study of Mus musculus with 8 samples.

Results

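The Hippo pathway genes described here are the kinase genes Stk3, Stk4, Lats1 and Lats2, the scaffold gene Sav1, the coactivator genes Yap1 and Wwtr1, and the transcription factor genes Tead1, Tead2 and Tead3. These 10 genes were chosen by name among 35087 named genes, and all 10 were among the 15102 genes with enough reads to be tested. Hippo signalling is a kinase cascade that restrains tissue growth. The kinases MST2 and MST1 (encoded by Stk3 and Stk4) act with the scaffold SAV1 on LATS1 and LATS2, which phosphorylate the coactivators YAP (Yap1) and TAZ (Wwtr1) and so keep them out of the nucleus. In the nucleus YAP and TAZ bind TEAD factors and switch on genes of growth and survival. In the ovary, disruption of Hippo signalling is known to promote follicle growth, and YAP is active in proliferating granulosa cells.

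Granulosa cells, the somatic cells around the oocyte, were cut by laser microdissection from ovary sections, and their polyadenylated RNA was amplified and sequenced. By the series' design text all mice were Hif1aflox/flox females, so that Cre recombinase could remove part of Hif1a. Mice of the cKO group (n = 2 libraries) carried in addition Foxl2-CreERT2, a Cre that is made from the granulosa gene Foxl2 and needs tamoxifen to act, and the group titled WT (n = 6 libraries) did not, so "WT" stands for mice with floxed alleles and no Cre. From 3 weeks of age both groups received tamoxifen at 100 mg/kg on each of 5 days, and ovaries were taken 7 days after dosing ended. For the cKO group the genotype label reads knockdown, and in the descriptions all 8 libraries bear a name starting with cKO. Groups were taken from the titles. No label ties a library to an animal or to a follicle stage. Libraries may share an animal, and p-values cover the spread among these 8 libraries alone.

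The libraries held from 651656 to 4719468 reads on named genes, with the lowest depth in cKO replicate 2, then WT replicate 1 (1594979) and cKO replicate 1 (2054739). Levels are given as CPM, the library's reads of a gene scaled by its total (edgeR's cpm, with TMM factors). Hif1a had 22.3 CPM in cKO replicate 1 and 13.7 CPM in cKO replicate 2, and the WT libraries lay between 35.5 and 106.2 CPM. The log2 fold change, cKO against WT, was -1.84 ± 0.58 (SE), with an adjusted p = 0.369 by edgeR. All 13 granulosa markers had reads in every library, but their summed level ran from 1964 to 5349 CPM in cKO and from 3848 to 63115 CPM in WT, where replicate 1 had the lowest value. The 10 oocyte markers summed to 54.8 CPM in cKO replicate 1, 38.2 CPM in cKO replicate 2 and between 12.5 and 1923 CPM in WT, and Dppa3 had no read in cKO. Stroma markers (7 genes) summed to 1203 CPM in cKO replicate 1, 285 CPM in cKO replicate 2 and between 18.1 and 897 CPM in WT. Sums for 7 endothelial markers were 312 and 260 CPM in cKO and from 86.9 to 417 CPM in WT, the highest in WT replicate 1. For 5 smooth muscle markers they were 622 and 98.3 CPM in cKO and from 26.8 to 471 CPM in WT, for 4 theca markers 177 and 31.4 CPM and from 48.9 to 676 CPM, and for 7 blood and immune markers 262 and 54.6 CPM and from 19.2 to 220 CPM. The 5 surface epithelium markers, of which Msln and Upk1b had no read in cKO, summed to at most 17.8 CPM in any library. The mitochondrial genome took 8.87% and 10.5% of reads in cKO and from 1.43% to 3.65% in WT. In bulk RNA of this kind, fewer cells of a type and less RNA per cell cannot be told apart.

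Yap1, Wwtr1 and Tead3 were the 3 of 10 Hippo genes whose cKO and WT libraries did not overlap. Yap1 and Wwtr1 were lower in cKO and Tead3 was higher. Of all tested genes 12.4% did not overlap, and edgeR called none of these 3 genes at an adjusted p under 0.05. Their promoters are shown because each holds the letters that TEAD factors are known to bind, GGAATG or its reverse complement CATTCC, printed in capitals. Each is the stretch of 250 bases up to a RefSeq transcription start (build GRCm38.p6, the assembly that mm10 denotes), written 5′ to 3′ on the gene's own strand, minus for all 3. They lie at chr9:8004597-8004846 for Yap1, chr3:57575911-57576160 for Wwtr1 and chr17:28350806-28351055 for the outermost of the Tead3 starts.
Yap1: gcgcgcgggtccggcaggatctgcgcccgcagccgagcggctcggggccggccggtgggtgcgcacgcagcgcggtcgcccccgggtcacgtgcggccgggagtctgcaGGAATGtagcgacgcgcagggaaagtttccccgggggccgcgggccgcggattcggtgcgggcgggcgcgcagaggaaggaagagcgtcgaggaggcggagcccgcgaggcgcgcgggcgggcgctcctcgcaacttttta
Wwtr1: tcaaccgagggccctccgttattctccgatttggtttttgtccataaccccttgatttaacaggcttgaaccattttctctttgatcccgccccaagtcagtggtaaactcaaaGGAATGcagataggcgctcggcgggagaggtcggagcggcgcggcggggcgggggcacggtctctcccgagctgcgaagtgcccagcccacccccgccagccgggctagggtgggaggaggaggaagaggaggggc
Tead3: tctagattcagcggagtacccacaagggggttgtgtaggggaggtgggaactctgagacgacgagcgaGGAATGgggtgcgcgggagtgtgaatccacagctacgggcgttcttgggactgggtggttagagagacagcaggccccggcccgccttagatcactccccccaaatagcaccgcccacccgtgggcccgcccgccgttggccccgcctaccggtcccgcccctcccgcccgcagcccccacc
The motif begins 141 bases before the start in Yap1, 136 in Wwtr1 and 182 in Tead3. RefSeq promoters were matched for 8 of the 10 genes (Tead1 and Stk3 were not matched), with 12 windows in all, some of which overlap. The motif on either strand was in 6 of these 12 windows, those of Yap1, Wwtr1 (both windows, which share 1 site), Tead3 (2 of its 3 windows) and Sav1. By comparison, 12.6% of all 32851 promoter windows of the same length held it. These are matches of letters only.

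Yap1 (chromosome 9, 7931999 to 8004596, minus strand) encodes YAP, a coactivator at the end of the cascade. It had 20.3 CPM in cKO replicate 1 and 20.5 CPM in cKO replicate 2, and in WT the lowest, median and highest values were 39.6, 50.7 and 57.1 CPM. Both cKO libraries were thus below each WT library, with means of 20.4 ± 0.135 CPM (SD, n = 2) and 48.6 ± 6.71 CPM (SD, n = 6). The log2 fold change was -1.25 ± 0.44 (SE), a 2.38-fold lower level, with an unadjusted p = 0.013 and an adjusted p = 0.369 in edgeR's quasi-likelihood fit. Among the 6 WT libraries Yap1 was steady, with a coefficient of variation of 13.8%, and only 0.788% of tested genes had a smaller one (the median gene had 53.7%). The near-identical cKO values rest on 40 and 15 reads, and counting alone allows 11.5 to 33.8 CPM in cKO replicate 2 (95% Poisson interval), below the lowest WT value of 39.6 CPM, for which counting allows 33.4 to 46.6 CPM. WT replicate 1 had the highest Yap1 level of all libraries, 57.1 CPM. Its granulosa marker sum lay inside the cKO range and its endothelial sum was the highest, and the part of cell composition in the Yap1 level was not tested.

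Wwtr1 (chromosome 3, 57455649 to 57575910, minus strand) encodes TAZ, the paralog of YAP. It had 16.2 CPM in cKO replicate 1 and 9.56 CPM in cKO replicate 2, and 29.1, 47.8 and 61.2 CPM as the lowest, median and highest WT values. Every WT library was higher than both cKO libraries, and WT replicates 1 and 2, at 29.1 and 35.3 CPM, were the lowest of their group. Mean levels were 12.9 ± 4.72 CPM for cKO (SD, n = 2) and 45.6 ± 11.8 CPM for WT (SD, n = 6). This gave a log2 fold change of -1.78 ± 0.52 (SE), a 3.44-fold lower level (edgeR unadjusted p = 0.004, adjusted p = 0.369). Wwtr1 was the 1 Hippo gene that DESeq2 called (adjusted p = 0.043), among the 6 of 10 to which it gave an adjusted p. DESeq2 called 3.98% of the 6881 genes it gave an adjusted p. With 7 reads in cKO replicate 2, counting alone allows 3.84 to 19.7 CPM there. For cKO replicate 1 it allows 11.1 to 22.9 CPM and for WT replicate 1 21.8 to 38.1 CPM, and these 2 intervals overlap. With the libraries numbered 1 and 2 alone, the log2 fold change was -1.21 for Wwtr1 and -1.17 for Yap1. WT replicates 1 and 2 had the lowest granulosa marker sums of their group, 3848 and 8370 CPM. The part of this sum and of depth in the Wwtr1 level was not tested.

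Of the TEAD genes, which encode the DNA-binding partners of YAP and TAZ, Tead3 alone had groups that did not overlap in CPM. Tead3 (chromosome 17, 28331671 to 28350817, minus strand) had 26.9 CPM in cKO replicate 1 and 12.3 CPM in cKO replicate 2, and 2.49, 2.89 and 10.4 CPM as the lowest, median and highest WT values. WT replicate 1 stood highest in its group at 10.4 CPM, close under cKO replicate 2, and no other WT library exceeded 5.80 CPM. The means were 19.6 ± 10.3 CPM (SD, n = 2) and 4.54 ± 3.14 CPM (SD, n = 6). On the log2 scale the difference was 2.14 ± 0.79 (SE), or 4.39-fold higher (edgeR unadjusted p = 0.018, adjusted p = 0.369). Without cKO replicate 1, the library with the largest stroma and smooth muscle sums, it was 1.39 (unadjusted p = 0.281), and without cKO replicate 2 it was 2.50. WT replicate 1 also had the largest stroma and smooth muscle sums of its group. The part of those cells in the Tead3 level was not tested. Counting alone allows 5.62 to 23.3 CPM in cKO replicate 2 (9 reads) and 6.29 to 16.3 CPM in WT replicate 1 (19 reads), so these 2 libraries are not told apart at this depth.

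Tead1 (chromosome 7, 112679318 to 112906807, plus strand) had 61.4 and 79.2 CPM in cKO and 34.5, 55.5 and 81.9 CPM as the lowest, median and highest WT values. Both cKO values lay within the WT range, and the log2 fold change was 0.25 ± 0.44 (SE; edgeR adjusted p = 0.832), with a sign that turned in 3 alternatives, to -0.61 at the lowest. For Tead2 (chromosome 7, 45215753 to 45233644, plus strand) the cKO libraries had 78.1 and 46.4 CPM against a lowest, median and highest WT value of 23.4, 53.7 and 81.9 CPM. The log2 fold change was 0.29 ± 0.49 (SE; edgeR adjusted p = 0.831), and it turned to -0.21 without cKO replicate 1 and to -0.039 with the replicate number as a block.

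The kinase genes overlapped between groups. Stk3 (chromosome 15, 34875496 to 35178921, minus strand), which encodes MST2, had 13.7 and 6.83 CPM in cKO and 9.34, 21 and 38.6 CPM as the lowest, median and highest WT values. WT replicate 1, the lowest of its group, lay between the 2 cKO libraries, and the other WT libraries were at 20.2 CPM or more. The log2 fold change was -1.17 ± 0.66 (SE; edgeR adjusted p = 0.477), or -1.86 without cKO replicate 1 and -0.41 with the libraries numbered 1 and 2 alone. Stk4 (chromosome 2, 164070322 to 164155524, plus strand), which encodes MST1, had 32.5 and 16.4 CPM in cKO, against 17.6, 33.3 and 48.9 CPM in the lowest, median and highest WT position. Its log2 fold change of -0.38 ± 0.53 (SE; adjusted p = 0.788 by edgeR) moved to -1.05 when cKO replicate 1 was left out and to -0.051 when cKO replicate 2 was.

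The LATS kinase genes lay closest to no difference. Lats1 (chromosome 10, 7681214 to 7716460, plus strand) had 10.7 and 10.9 CPM in cKO, inside the WT range of 7.64 to 15.3 CPM (median 8.99). The log2 fold change was 0.11 ± 0.70 (SE; adjusted p = 0.960 by edgeR), or -0.0037 with the block. Lats2 (chromosome 14, 57689662 to 57758388, minus strand), also known as a target gene of YAP, had 26.4 and 36.9 CPM in cKO, inside the WT range of 16.1 to 45.1 CPM (median 24.6). Its log2 fold change was 0.23 ± 0.51 (SE; edgeR adjusted p = 0.880), and it turned to -0.10 without cKO replicate 2. The standard errors are wide, and these values do not show that the LATS genes were equal in the 2 groups.

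Sav1 (chromosome 12, 69965012 to 69987002, minus strand), the scaffold of the MST kinases, had the lowest mean CPM of the 10 genes over the 8 libraries. It had 4.06 and 1.37 CPM in cKO, from 8 reads and 1 read, while the WT libraries had 0, 6.27 and 17.2 CPM as the lowest, median and highest. The WT library with no read was replicate 4, which held 4719468 reads, and a count of 0 there allows up to 0.725 CPM (3 reads). The coefficient of variation in WT was 92.0%, the largest of the 10 genes. The log2 fold change of -1.33 ± 1.5 (SE; adjusted p = 0.729 by edgeR) was -0.82 without WT replicate 3 and -2.44 without cKO replicate 1, and it turned to 0.74 with limma-voom.

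**Figure D1:**
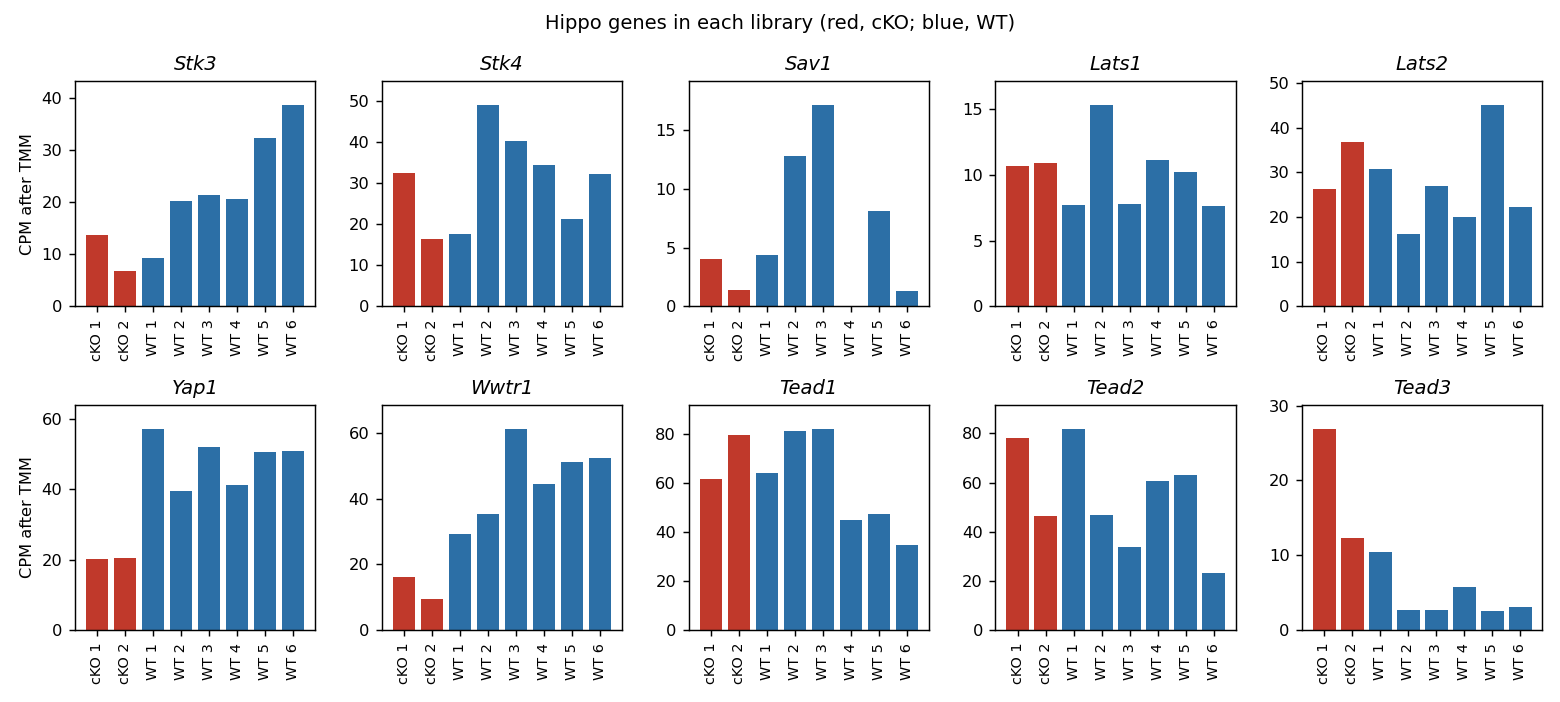
CPM after TMM (y axis from 0, each gene on its own scale) in each of the 2 cKO (red) and 6 WT (blue) libraries for the 10 Hippo genes. Yap1 and Wwtr1 bars of cKO are below all WT bars, Tead3 bars of cKO are above them, and Sav1 has no read in WT replicate 4.

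Counted together, edgeR called 0 of the 10 genes at an adjusted p under 0.05, against 0.0% of all tested genes. At an unadjusted p under 0.05 there were 3, of which 2 were lower (Yap1, Wwtr1) and 1 higher (Tead3), where all tested genes gave 12.3%, with 8.89% lower and 3.4% higher. The groups did not overlap in the same 3 genes, against 12.4% of all genes (6.41% lower and 6.02% higher). In direction 5 of 10 were lower and 5 higher (52.7% of all tested genes were lower), and the median of their log2 fold changes was -0.14 against -0.077 over all genes. Yap1, Wwtr1 and Tead3 kept their direction in all 18 alternatives run, with ranges over single libraries left out of -1.32 to -1.13, -2.31 to -1.55 and 1.39 to 2.55. As their groups did not overlap, leaving out a library or keeping those numbered 1 and 2 could hardly turn the sign. Those alternatives show the size of the difference only. With the replicate number as a block or with a covariate for how many genes a library detected, 0 of the 10 had an unadjusted p under 0.05. With the libraries numbered 1 and 2 alone it was 0 of 9, since Sav1 was not tested there. All 10 genes reached the count filter's level in enough WT libraries to pass without cKO.

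**Figure D2:**
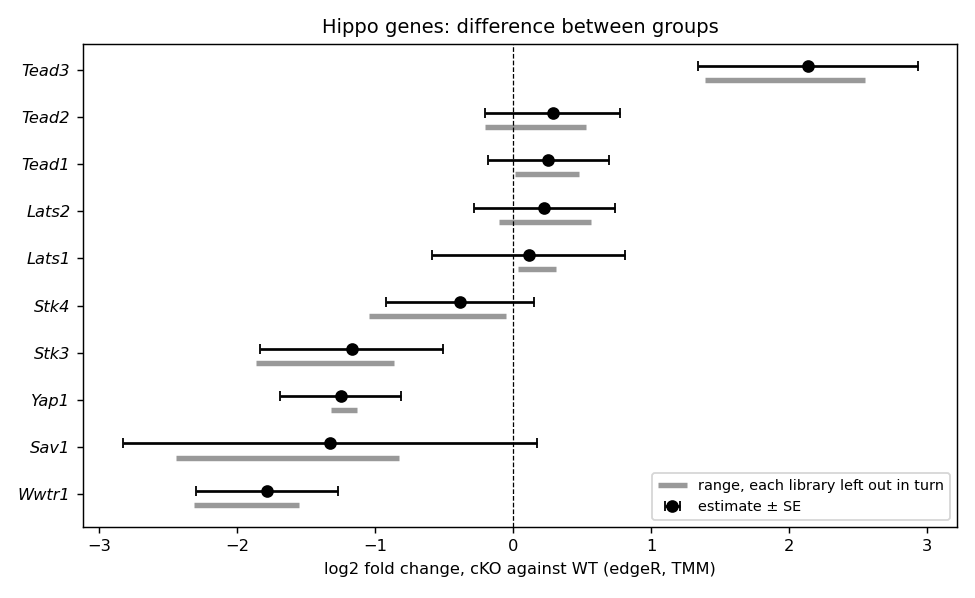
log2 fold change of cKO against WT for the 10 Hippo genes (points with SE bars, edgeR) and the range when each of the 8 libraries is left out in turn (grey). Yap1 has the narrowest grey range on the lower side, from -1.32 to -1.13, and Sav1 the widest, from -2.44 to -0.82.

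Levels were compared between the 10 genes per length, in CPM per kb of the gene's merged exons (GENCODE M21) and in the deposited TPM. Tead2 had the highest median of the 8 libraries on both scales, 11.2 CPM per kb and 40.3 TPM. By CPM per kb the order went on with Wwtr1 (8.34), Stk4 (5.53), Yap1 (4.96), Tead1 (4.61), Lats2 (3.82), Stk3 (3.33), Lats1 (1.43), Sav1 (0.803) and Tead3 (0.660). By TPM it went on with Tead1 (13.2), Yap1 (11.9), Lats2 (10.3), Wwtr1 (7.05), Stk4 (6.33), Stk3 (5.73), Sav1 (1.75), Tead3 (1.40) and Lats1 (1.25). In all 9 neighbouring pairs of either order the ranges over libraries overlapped. Compared within libraries, Stk3 was above its neighbour Sav1 by TPM in 8 of 8 libraries, Tead2 was above Tead1 by TPM in 7, and Stk3 was above Lats1 by CPM per kb in 7. In the other pairs the first gene was higher in 3 to 6 of the 8 libraries. The scales differ in the length used, which in the authors' tables is often short. For Tead2 it was from 167 to 216 bases, against 3396 bases for its longest transcript in GENCODE M21. For Yap1 it was 631 and 595 bases in cKO and from 388 to 472 in WT, and the Yap1 TPM (3.52 and 4.90 in cKO, from 6.48 to 17.3 in WT) is divided by these lengths. On the TPM scale groups did not overlap in 5 of the 10 genes, the 3 above and also Tead2 and Lats1, both higher in cKO, where 12.4% of all tested genes did not overlap on that scale.

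**Figure D3:**
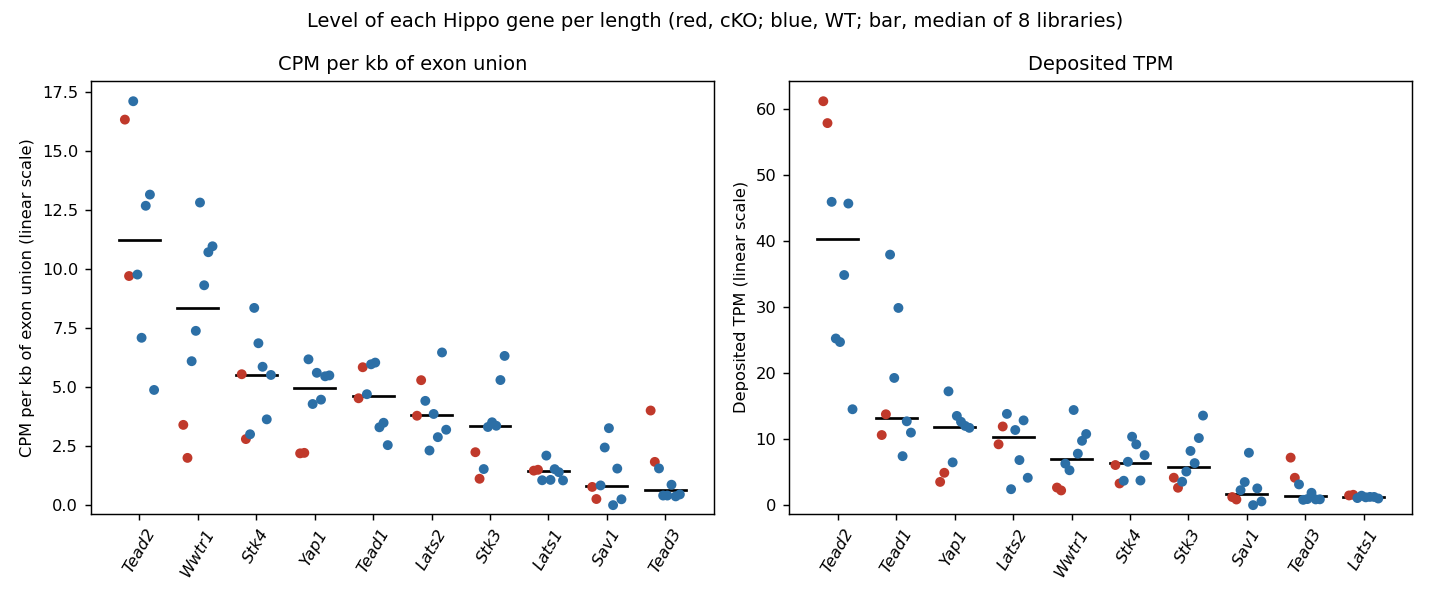
Level of each of the 10 Hippo genes per length in 8 libraries (red, cKO; blue, WT; bar, median), in CPM per kb of merged exons and in deposited TPM, ordered by the median. Tead2 leads on both scales, with medians of 11.2 CPM per kb and 40.3 TPM.

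Shares within paralogs do not depend on how libraries are scaled against each other, and 6 shares of TPM were compared. The test was an exact permutation test (two-sided) of all 28 splits into 2 and 6 libraries, which cannot give a p below 0.036. Yap1 made up 62.8% ± 8.37 (SD, n = 2) of the Yap1 and Wwtr1 TPM in cKO and 57.6% ± 8.84 (SD, n = 6) in WT (exact permutation p = 0.5, adjusted over the 6 shares p = 0.6). Both coactivator genes were lower in cKO, and the balance between them differed by less than the spread between libraries. Tead3 took 9.11% and 5.47% of the TPM of Tead1 to Tead3 in cKO, above the 1.47% to 4.24% of the WT libraries, a difference of 4.61 percentage points (exact permutation p = 0.036, adjusted p = 0.214). Tead2 took 76.9% ± 0.765 in cKO (n = 2) and 60.7% ± 14.0 in WT (n = 6; exact permutation adjusted p = 0.571), and this difference of 16.2 points became -3.97 with reads not divided by length. The shares of Lats1 in the LATS pair (12.7% ± 1.49 against 16.3% ± 11.3; adjusted p = 0.714) and of Stk3 in the MST pair (42.6% ± 2.77 against 52.5% ± 13.1; adjusted p = 0.589) overlapped between groups (exact permutation tests, n = 2 and n = 6). Salmon, the tool in the submitters' notes, divides reads that fit several transcripts by estimation, so paralog shares are estimates.

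The rest of the pathway was taken from 6 lists by role (68 genes, 63 tested). Of these 63 genes 30 were lower and 33 higher in cKO, where 52.7% of all tested genes were lower. By edgeR 0 were called, and DESeq2 called 0 of the 35 with an adjusted p from it. At an edgeR unadjusted p under 0.05 there were 7 lower, beside the 8.89% of all genes given above. The 2 higher ones, Fjx1 and Nuak2, passed the count filter only through the cKO libraries, so they are set against no share. The groups did not overlap in 5 lower genes, beside 6.41% of all tested genes. Higher without overlap were Mink1 and, through the filter, Fjx1 and Nuak2. Upstream regulators and kinases that activate the MST or LATS kinases (18 tested) were higher in 16 and lower in 2, with a median log2 fold change of 0.68. Of these 18 genes 0 had an unadjusted p under 0.05. Only 17 of the 18 reached the count filter's level in enough WT libraries to pass without cKO, so the count and the median are a description. The median was between 0.22 and 1.0 over the alternatives and 0.23 without cKO replicate 1 (list medians under alternatives were added after seeing the data). Mink1, a MAP4K family kinase gene, had 57.9 and 47.8 CPM in cKO and 17.5, 26.5 and 42.1 CPM as the lowest, median and highest WT values, with no overlap (log2 fold change 0.95 ± 0.45, SE; edgeR adjusted p = 0.410). Nf2, which encodes the tumour suppressor merlin, was at 0.75 ± 0.51 and Map4k2 at 1.08 ± 0.75, and both overlapped with WT. Of the cell type markers, 7 of 7 stroma, 6 of 7 endothelial, 4 of 5 smooth muscle and 4 of 7 blood and immune genes were higher in cKO. Lower were 11 of 13 granulosa, 4 of 4 theca and 10 of 10 oocyte markers. The part of cell composition in the upstream list was not tested.

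Genes acting next to the kinases were mostly lower. Mob1a, which encodes a coactivator of the LATS kinases, had 18.3 and 5.46 CPM in cKO and 10.4, 60.3 and 77.7 CPM as the lowest, median and highest WT values. Only WT replicate 1 overlapped with cKO, and the log2 fold change was -2.07 ± 0.73 (SE; edgeR adjusted p = 0.369). Its paralog Mob1b was at -0.23 ± 0.66, with a sign that turned in 5 alternatives. Among inhibitors of the Hippo kinases (11 tested, LIM proteins and subunits of the STRIPAK phosphatase complex) 10 were lower and 1 higher, with a median of -0.27 (0.010 with the replicate number as a block). Ajuba, a LIM protein gene that restrains LATS, had 2.03 and 4.10 CPM in cKO (4 and 3 reads) against a WT range of 4.95 to 14.4 CPM (median 10.4), lower with no overlap (log2 fold change -1.77 ± 0.95, SE; edgeR adjusted p = 0.457). The STRIPAK genes Mob4 and Strn were at -1.47 ± 0.68 (unadjusted p = 0.048) and -1.05 ± 0.61. For both of them WT replicate 1 (14.3 and 14.8 CPM) was the lowest WT library and below cKO replicate 1.

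Genes for proteins that hold YAP and TAZ in the cytoplasm or mark them for destruction (11 tested) were lower in 9 of 11, with a median of -0.53, and 4 of them (Ywhae, Ywhag, Ywhaq and Ywhaz), all encoding 14-3-3 proteins that bind phosphorylated YAP, had an unadjusted p under 0.05, where all tested genes gave 8.89% lower. The other 14-3-3 genes of the list, Ywhab (-0.97, unadjusted p = 0.070) and Ywhah (-0.32, unadjusted p = 0.530), did not. Ywhag had 52.3 and 30.1 CPM in cKO and 59.3, 118 and 155 CPM as the lowest, median and highest WT values, with no overlap (log2 fold change -1.43 ± 0.49, SE; edgeR adjusted p = 0.369). Ywhaz was also lower with no overlap (-1.33 ± 0.51, SE, edgeR adjusted p = 0.374). It had 127.4 CPM in cKO replicate 1, close under WT replicate 1 (136.8 CPM), and 43.7 CPM in cKO replicate 2. Ywhaq was at -2.22 ± 0.94 (adjusted p = 0.380). Its cKO libraries had 121.8 and 32.8 CPM, close to WT replicates 1 and 2 (42.9 and 122.5 CPM), while the remaining WT libraries lay between 288 and 658 CPM. WT replicates 1 and 2 also had the lowest Mob1a levels and granulosa marker sums of their group, and the part of that sum in these genes was not tested. The median of this list was -0.027 with the libraries numbered 1 and 2 alone, -1.17 without cKO replicate 1 and -0.21 without cKO replicate 2. Of the TEAD cofactor genes and Tead4 only Vgll4, which encodes a repressor of YAP-TEAD activity, had enough reads to be tested. Vgll4 had 25.9 and 10.9 CPM in cKO against a WT range of 30.1 to 64.3 CPM (median 41.2), lower with no overlap (log2 fold change -1.23 ± 0.53, SE; edgeR adjusted p = 0.383).

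Target genes of YAP and TAZ (20 tested) were higher in 14 and lower in 6, with a median of 0.53 on the log2 scale, between 0.12 and 0.79 over the alternatives. Only 16 of these 20 reached the count filter's level in enough WT libraries to pass without cKO, so the count and the median are a description. The genes that did not (Fjx1, Nuak2, Foxf2 and Nt5e) were all higher in cKO, which raises both figures. The part of cell composition in this list was not tested. The matricellular protein genes Ccn1 and Ccn2, the targets most used as readouts, lay on opposite sides of 0. Ccn1 (Cyr61 in the files) had 11.7 and 5.46 CPM in cKO, overlapping with a WT range of 0.679 to 9.36 CPM (log2 fold change 0.96 ± 1.07, SE; edgeR adjusted p = 0.724). Ccn2 (Ctgf in the files) had 11.2 and 17.8 CPM in cKO (log2 fold change -0.71 ± 0.93, SE; edgeR adjusted p = 0.772). The WT libraries split widely for Ccn2, with 39.6, 40.5 and 41.7 CPM in replicates 1 to 3. Replicates 4 to 6 had 3.87, 9.28 and 5.89 CPM, so WT libraries lay on both sides of cKO.

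The targets Fjx1 and Nuak2 passed the count filter only through the cKO libraries, so that they had to be higher there, and their values are given with no test. Fjx1 had 18.3 and 8.20 CPM in cKO and at most 2.18 CPM in WT. Nuak2, which encodes a kinase, had 3.55 and 15 CPM in cKO and at most 1.10 CPM in WT. These levels rest on few reads, 36 and 6 for Fjx1 and 7 and 11 for Nuak2 in cKO, with no read in 3 of the 6 WT libraries for each gene. Crim1, a target lower in cKO, was at -2.12 ± 1.10 (adjusted p = 0.444), and this rested on WT replicate 3 with 546 CPM, since it was -0.94 without that library.

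**Figure D4:**
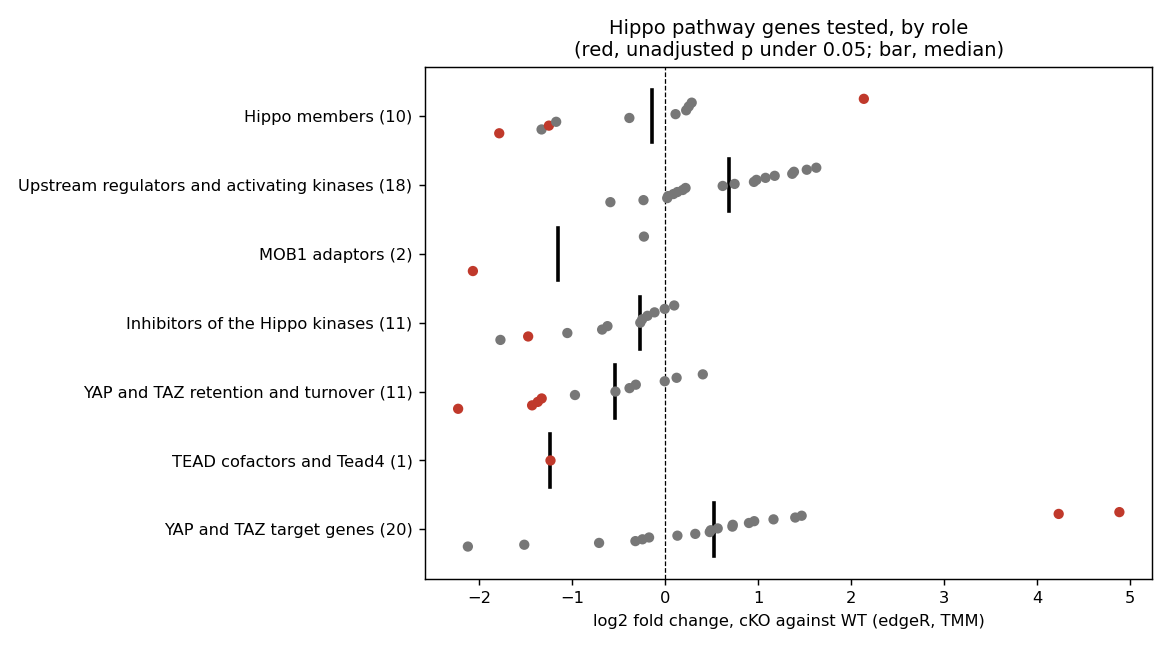
log2 fold change of cKO against WT for each tested gene of the 10 Hippo genes and of the 6 other lists (points; red where the unadjusted p is under 0.05; bar, median of the list, number tested in brackets). The upstream list centres at 0.68, the retention and turnover list at -0.53 and the target list at 0.53. The red points of Fjx1 and Nuak2 in the target list passed the count filter only through the cKO libraries.

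Genes with the pattern most like the coactivators over the 8 libraries were found by Pearson correlation of log2(CPM + 1) against 14008 tested genes (names of the Gm and Rik type left out), as a description. For Yap1 they were Asxl1 (r = 0.987), Ttc21b (0.964) and Tmed5 (0.957), and for Wwtr1 they were Tollip (0.989), Sgcb (0.985) and Eid1 (0.979). Asxl1 had 40.1 and 41.0 CPM in cKO and from 59.6 to 90.1 CPM in WT. Among the other Hippo genes Wwtr1 was the most like Yap1 (r = 0.871) and Tead3 the least (r = -0.734). These r values take in the difference between the groups and share the depth of the libraries. Those of Asxl1 to Eid1 were picked as the highest of 14008 over 8 libraries, and such a choice alone gives high values. In cKO replicate 2 Ttc21b and Eid1 had 2.73 CPM and Sgcb 0 CPM, under the 4.10 CPM that 3 reads make there.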

How the data were processed

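Polyadenylated RNA of laser-captured granulosa cells was amplified with a Smart-seq2 type protocol and made into Tn5 libraries, per the labels' protocols. Strand is not marked, so reads from the stretch where genes overlap (Tomm34 at Stk4, Atl1 at Sav1) cannot be told apart by strand. The authors deposited, per library, estimated counts of reads, TPM and transcript lengths in bases for 36635 rows. HISAT2, Salmon and mm10 are named in the submitters' processing notes; their annotation version: not given in the sources used here. Rows with a transcript identifier only (1548, from 0.435% to 0.739% of reads) were left out.

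Estimated counts were rounded. Genes were kept by filterByExpr (minimum count 10, minimum total 15), scaled by TMM and compared with edgeR 4.0.16 (quasi-likelihood test, group as the only term, R 4.3.3), with Benjamini-Hochberg adjustment over 15102 genes and a threshold of 0.05. The common biological coefficient of variation was 0.699. SE was derived from the F statistic. Alternatives used DESeq2 1.42.0 and limma 3.58.1. Log2 fold changes are positive where cKO is higher. Poisson intervals (95%) and the limit of 3 reads cover counting error only, since reads carry no molecular identifiers. Coordinates and exon lengths are from GENCODE M21 (GRCm38), promoters from RefSeq (GRCm38.p6).

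All library pairs differed by more than sampling noise (chi-square per degree of freedom from 13.4 to 102.9 over 28 pairs). On simulated counts of 15102 genes for cKO against WT, 18% of 4-fold and 62% of 16-fold changes were called, with 2 false calls, and 0 when none was changed.

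The 10 genes and the lists were chosen with earlier results of these data known. Named genes are the 10, Hif1a, Ccn1, Ccn2, the 3 tested genes of each other list with the smallest p, and the 3 genes most correlated with Yap1 and with Wwtr1. Other genes named (Ywhab, Ywhae, Ywhah and, among markers and cofactors, Dppa3, Msln, Upk1b, Wt1, Fshr, Inha, Fst, Hsd17b1, Gja1, Amh, Tead4 and Vgll3) were chosen after their values were seen.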

Additional observations from a re-analysis of the deposited data

Results flagged for a closer look

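Of 34 values checked for 1 WT library far from the other 5, 2 had one, and chance alone gives about 1 in 20. Map4k2 had 59.3 CPM in WT replicate 1 and at most 22.7 CPM in the other WT libraries, while the cKO libraries had 49.2 and 39.6 CPM. Crim1 had 546.0 CPM in WT replicate 3 and at most 141.9 CPM in the other WT libraries.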

How the results depend on the processing

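Of 179 values of the 10 Hippo genes under alternative processing, 170 kept their direction and their side of the threshold. The replicate numbers do not pair the samples by any label, and deviations of same-numbered libraries correlated at -0.30 and -0.17 for numbers 1 and 2. With the replicate block edgeR called 1 gene of all tested, against 0 without it. All genes called were 478 with no filter on low counts, 274 with DESeq2, 5 with limma on log2(TPM + 1), and from 0 to 1 with single libraries left out, where the values without cKO replicate 1 and without cKO replicate 2 were 1 each. Of the Hippo genes DESeq2 called 1 (Wwtr1), and 0 were called with single libraries left out. Groups without overlap numbered 5 genes on the TPM scale, and from 3 to 5 with single libraries left out (added after seeing the data), 5 without cKO replicate 1, which leaves 1 cKO library and where 45.0% of all tested genes did not overlap, and 4 without WT replicate 1, where 26.7% did not. Signs turned for Tead1 (-0.46 with TPM, -0.042 with the block, -0.61 with detected genes as a covariate), Tead2 (-0.039 with the block, -0.21 without cKO replicate 1, with single libraries left out from -0.21 to 0.52), Lats1 (-0.0037 with the block), Lats2 (-0.10 without cKO replicate 2, from -0.10 to 0.56 likewise) and Sav1 (0.74 with limma-voom). Outside the 10, they turned for Ctgf (0.43 with limma-voom), Nf2 (-0.21 with the covariate), Mob1b (0.19 with the block, 0.46 with libraries numbered 1 and 2, 0.39 without cKO replicate 1, 0.012 and 0.024 without WT replicates 3 and 6, from -1.39 to 0.39 likewise), Strn (0.40 with TPM, 0.22 with the block, 0.17 with libraries numbered 1 and 2) and Ywhaq (0.0043 with libraries numbered 1 and 2). Among shares, Tead2 turned to -3.97 points with reads and -6.02 with reads per kb of merged exons (added after seeing the data), Yap1 to -0.72 without cKO replicate 2 (from -0.72 to 11.1 with single libraries left out) and Lats1 to 0.60 without WT replicate 2 (from -5.40 to 0.60). The cause was not tested. Over all genes the median log2 fold change was -0.077 (TMM) or 0.049 (size factors of DESeq2). Depth limits genes with few reads in cKO, such as Sav1 and Ajuba.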

Other observations

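Tead4, the TEAD gene outside the 10, had 3 reads in cKO replicate 2 and 1 read in WT replicate 4, and no read in the other 6 libraries. Among the Vestigial-like cofactor genes Vgll3 had 9.56 CPM in cKO replicate 2 (7 reads) and at most 2.66 CPM in any other library. The hypoxia response letters to which HIF1 is known to bind, ACGTG or GCGTG on either strand, were in 6 of 12 promoter windows of the Hippo genes. They were in 38.6% of all windows of 250 bases before a start. The Yap1 window had 3 matches counted over both strands, and its stretch CACGTG, which reads the same on both strands, was counted on each. A match of so few letters is a description only. Of the 13 granulosa markers 11 were lower and 2 higher (Wt1 and Amh) in cKO, with a median log2 fold change of -1.82. Wt1, a transcription factor gene of granulosa cells, was at 1.88 ± 0.76 (log2 fold change with SE; adjusted p = 0.378 by edgeR), and Fshr, which encodes the FSH receptor, at -3.09 ± 0.67 (adjusted p = 0.369). By DESeq2, which called 3.98% of the 6881 genes it gave an adjusted p, the adjusted p of Fshr was 0.00178. DESeq2 also called Inha, Fst, Hsd17b1 and Gja1, all lower. The edgeR adjusted p was 0.375 for Inha and 0.369 for Fst, Hsd17b1 and Gja1.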
